A study of Mus musculus with 6 samples.

Results

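The genes described here encode the fibres and sheets of the extracellular matrix of the embryonic mouse ventricle. They were chosen by symbol: every gene named Col, digits, a, digits, every gene whose symbol begins with Lama, Lamb or Lamc and a digit, and Fn1, Postn, Sparc, Nid1, Nid2, Eln, Fbn1, Vcan and Hspg2. The deposited table held 56 such genes of 13843 genes in all. A further 8 symbols of the annotation that match the rule were not among the genes of the table (Col5a3, Col6a4, Col6a5, Col10a1, Col17a1, Col19a1, Col24a1 and Col28a1). The study compared RNA of single ventricles of E12.5 embryos, without atria and valve region, on a C57BL/6 background. The 3 controls had the genotype Vhl(flox/flox) / Nkx2.5(+/+), and the 3 embryos labelled Vhl KO had Vhl(flox/flox) / Nkx2.5(Cre/+), so that both groups carried floxed Vhl alleles and Cre was present in the second group alone. The Cre sits on 1 Nkx2-5 allele and acts in the lineage that makes Nkx2-5, so Vhl loss and the altered Nkx2-5 allele cannot be told apart, and cells outside that lineage keep Vhl. Controls 1 and 2 were littermates of knockouts 1 and 2 in litters 1 and 2.

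Collagens are triple helices of repeated glycine-led triplets. Their prolines and lysines are hydroxylated in the endoplasmic reticulum by prolyl and lysyl hydroxylases, oxygen-using enzymes whose genes include known targets of the hypoxia-inducible factors (HIF), and lysyl oxidases then cross-link the secreted chains. Collagen IV, laminins, nidogens and perlecan form basement membranes around cardiomyocytes and vessels, while fibrillar collagens, fibronectin, periostin and versican fill the spaces beneath the epicardium, in the cardiac jelly and in the cushions. VHL marks the HIF alpha subunits for degradation when oxygen is present.

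Each library held 9067805 to 12592902 reads, and values are reads divided by 1 scaling factor per library (called scaled reads below). Vhl stood at 33.7, 36.3 and 38.6 in controls 1 to 3, 11.1 and 10.3 for knockouts 1 and 2, and 34.5 for the library labelled knockout 3, so the last library went against its label and is shown apart throughout. Hif1a, which encodes the HIF-1 alpha subunit, was also lowest in knockouts 1 and 2, at 457, 405 and 447 in controls 1 to 3, 185 and 163 for knockouts 1 and 2, and 473 for the library labelled knockout 3. Tests compared knockouts 1 and 2 with the 3 controls by limma on log2(value + 1), with p-values adjusted over all 13843 genes (Benjamini-Hochberg). Because that library was set apart for its Vhl value, calls of genes that follow Vhl share this choice. With all 6 libraries no gene of the table passed by limma (smallest adjusted p 0.77, and 859 genes at an unadjusted p under 0.05). Every limma call with 5 libraries given below was thus lost when that library was kept. DESeq2 and edgeR were run on 5 libraries alone, and the fit between littermates on litters 1 and 2. Whether their calls hold with that library was not tested. Cardiomyocyte markers were present in every library (14 of 14 measured, summed level 41494 to 50503).

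Of the 56 matrix genes, 3 rose, 3 fell and 50 did not pass, beside 3.01% of all genes higher and 1.24% lower (4.25% in either direction). DESeq2 called 5 higher and 4 lower, beside 3.97% and 1.99% of all genes. The risers were Col12a1, Col6a1 and Lamb3, and the genes that fell were Col13a1, Lama2 and Col9a2. The median log2 fold change of the 56 was 0.13, against -0.01 over all genes. Both knockouts lay above all controls for 20 of the 56 (35.7%, beside 18.1% of all genes) and below them for 9 (16.1%, beside 17.0%). Together the 56 took 1.28% to 1.33% of reads in the controls. The share was 1.44% and 1.40% for knockouts 1 and 2 and 1.16% for the library shown apart, so the knockouts were highest and the library shown apart lowest. That library lay below every control for 23 of the 56 (41.1%, beside 21.7% of all genes) and within their range for 21 (37.5%, beside 56.1%). A fit of the litter 1 and 2 pairs that took the litter as a block called 7 higher and 5 lower, beside 4.92% and 3.21% of all genes. That fit includes all 6 genes just named, in the same direction, and rests on the same knockouts. It left 1 residual degree of freedom, against 3 with 5 libraries. Its p-values, here and below, therefore lean more on the spread pooled over genes.

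**Figure D1:**
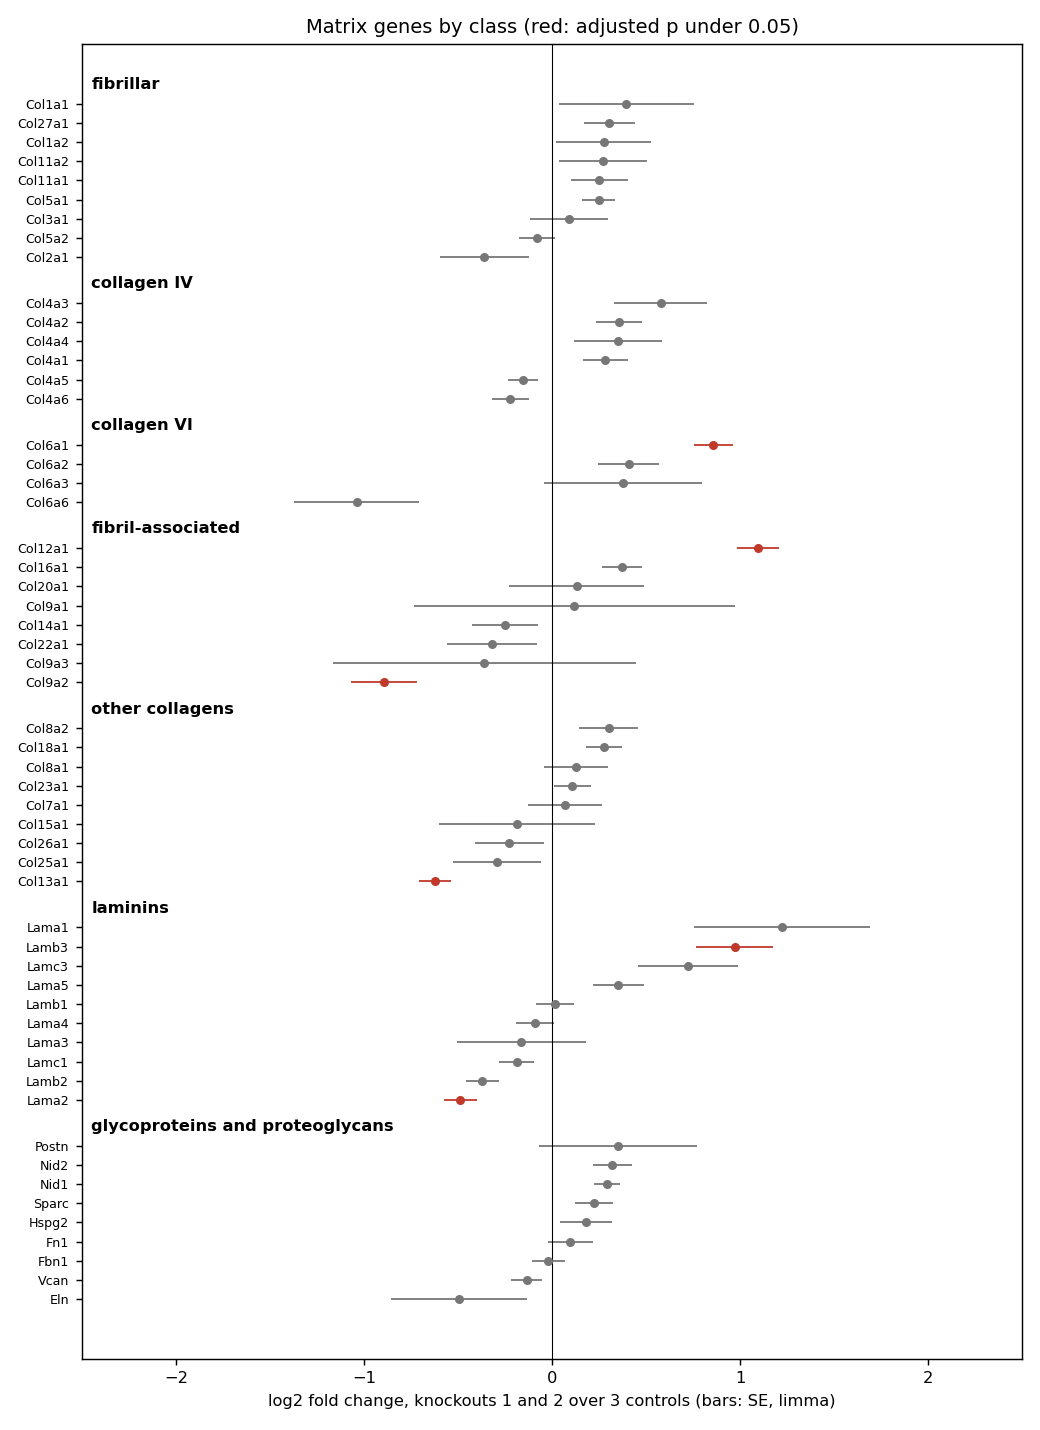
Log2 fold change of 55 of the 56 matrix genes (x axis, knockouts 1 and 2 over 3 controls, bars show the SE of limma), grouped by class on the y axis. The 6 red points passed an adjusted p of 0.05, and the fibrillar, collagen IV and glycoprotein classes hold none of them.

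The first of the risers, Col12a1 (ENSMUSG00000032332, chromosome 9, 79598991 to 79718831 on GRCm38), encodes collagen XII, which decorates collagen I fibrils. Its values were 65.9, 64.9 and 52.4 in controls 1 to 3, 137 and 125 for knockouts 1 and 2, and 70.2 for the library labelled knockout 3. Both knockouts were far above every control, and the library shown apart lay just above the highest control. The log2 fold change was 1.09 ± 0.11 (SE, adjusted p = 0.0019, limma; log2 0.80 and adjusted p = 0.77 with all 6 libraries), and the call held when any single library was left out (largest adjusted p 0.031). Within litter 1 the log2 difference was 1.05 and within litter 2 it was 0.93.

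Col6a1 (chromosome 10, 76708792 to 76726168) encodes 1 of the chains of collagen VI, a beaded microfibril next to basement membranes. It stood at 44.2, 47.7 and 46.7 in controls 1 to 3, 75.7 and 93.8 for knockouts 1 and 2, and 38.7 for the library labelled knockout 3. The 2 knockouts were above every control, and the library shown apart was below them all. Its log2 fold change was 0.86 ± 0.10 (SE; adjusted p = 0.0041, limma; log2 0.49 and adjusted p = 0.78 with all 6 libraries), and no left-out library ended the call (largest adjusted p 0.024). Its neighbour Col6a2, the second chain of the same trimer, had 63.7, 62.7 and 57.7 in controls 1 to 3, 65.8 and 101 for knockouts 1 and 2, and 60.3 for the library labelled knockout 3, so that the groups did not overlap but knockout 1 lay close to the controls (log2 0.41 ± 0.16, adjusted p = 0.24, limma; 0.71 and 0.027 without knockout 1). Scaled by transcript length, the ratio of Col6a1 to Col6a2 ran from 0.787 to 0.918 among controls, reached 1.31 and 1.05 with knockouts 1 and 2, and was 0.730 for the library shown apart. Col6a3, its large partner chain, was at 8.76, 23.9 and 20.9 in controls 1 to 3, 30.6 and 15.2 for knockouts 1 and 2, and 10.7 for the library labelled knockout 3, with overlapping groups and a spread of 2.73 times among the controls. Col6a6 had 13.2, 12.8 and 7.76 in controls 1 to 3, 3.07 and 7.36 for knockouts 1 and 2, and 4.49 for the library labelled knockout 3. Its fold change of -1.04 ± 0.33 did not pass with 5 libraries (adjusted p = 0.15, limma), and between littermates it did (adjusted p = 0.0048).

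Lamb3, the beta chain of the epithelial laminin 332, was a low gene at 2.22, 2.35 and 2.62 in controls 1 to 3, 6.71 and 4.73 for knockouts 1 and 2, and 3.11 for the library labelled knockout 3. The knockouts were above all other libraries, with a log2 fold change of 0.97 ± 0.21 (adjusted p = 0.044, limma, the largest of the 6 calls; log2 0.74 and adjusted p = 0.77 with all 6 libraries). The call ended whichever library was left out (log2 0.76 to 1.18, adjusted p up to 0.25), and edgeR gave 0.051. Lama3, the alpha chain, was at 3.00, 4.11 and 7.66 in controls 1 to 3, 3.07 and 5.17 for knockouts 1 and 2, and 3.21 for the library labelled knockout 3, with overlapping groups (log2 -0.16 ± 0.34, adjusted p = 0.86, limma).

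**Figure D2:**
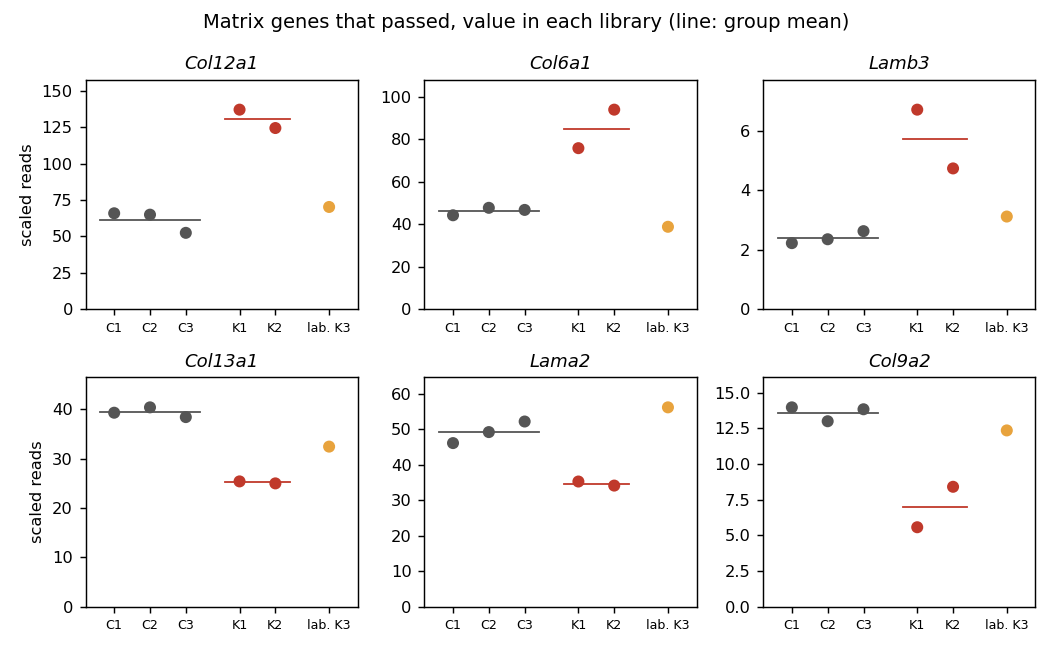
Scaled reads (y axis) of the 6 matrix genes that passed, in controls (C1 to C3, grey), knockouts 1 and 2 (red) and the library labelled knockout 3 (orange, x axis). In each panel both knockouts lie outside the range of the controls, while the orange point is nearer to the controls than the knockouts are.

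Among the genes that fell, Col13a1 (chromosome 10, 61838236 to 61979108), a transmembrane collagen of cell contacts, was measured at 39.3, 40.4 and 38.4 in controls 1 to 3, 25.4 and 25.0 for knockouts 1 and 2, and 32.4 for the library labelled knockout 3, so that both knockouts were below every other library. The fall was -0.62 ± 0.09 on the log2 scale (adjusted p = 0.0075, limma; log2 -0.51 and adjusted p = 0.77 with all 6 libraries), and it missed the threshold without knockout 1 (adjusted p = 0.056). Lama2, the alpha chain of the main muscle laminin, which binds dystroglycan and integrin alpha 7, stood at 46.2, 49.3 and 52.2 in controls 1 to 3, 35.3 and 34.2 for knockouts 1 and 2, and 56.2 for the library labelled knockout 3. The knockouts were lowest and the library shown apart highest (log2 -0.49 ± 0.09, adjusted p = 0.023, limma; log2 -0.26 and adjusted p = 0.82 with all 6 libraries). Its call was lost without control 2, control 3, knockout 1 or knockout 2 (log2 -0.53 to -0.45, adjusted p up to 0.1). Lamb2, a beta chain that pairs with it in synapses and vessels, was at 117, 132 and 111 in controls 1 to 3, 91.2 and 93.4 for knockouts 1 and 2, and 121 for the library labelled knockout 3 (log2 -0.37 ± 0.09, adjusted p = 0.064 by limma; 0.0091 between littermates). Both knockouts were below every control. Col9a2, a chain of the fibril-associated collagen IX of cartilage-like matrix, had 13.98, 13.0 and 13.8 in controls 1 to 3, 5.58 and 8.41 for knockouts 1 and 2, and 12.4 for the library labelled knockout 3 (log2 -0.89 ± 0.18, adjusted p = 0.034, limma; log2 -0.64 and adjusted p = 0.77 with all 6 libraries). It lost its call without control 1, control 2, control 3 or knockout 1 (log2 -1.15 to -0.63, adjusted p up to 0.15).

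No fibrillar collagen passed, 0 of 9, beside 4.25% of all genes, and for 9 genes a count of 0 is near that share. By DESeq2 the count was also 0, beside 3.97% of all genes higher and 1.99% lower. The smallest unadjusted p of limma in the class was that of Col5a1, 0.0226, the 1 fibrillar gene under 0.05. Col1a1 and Col1a2, the chains of collagen I, did not move in both knockouts alike. Col1a1 was at 335, 293 and 379 in controls 1 to 3, 732 and 263 for knockouts 1 and 2, and 223 for the library labelled knockout 3. Col1a2 was at 281, 294 and 366 in controls 1 to 3, 527 and 269 for knockouts 1 and 2, and 240.4 for the library labelled knockout 3. For both genes knockout 1 was the highest library and knockout 2 lay below every control. The log2 fold changes were 0.39 ± 0.36 and 0.27 ± 0.25 (adjusted p = 0.64 and 0.65, limma), and that of Col1a1 was -0.34 without knockout 1 (adjusted p = 0.36) and 1.13 without knockout 2 (adjusted p = 0.016, limma). Col3a1, which copolymerises with collagen I, stood at 369, 534 and 617 in controls 1 to 3, 597 and 464 for knockouts 1 and 2, and 339 for the library labelled knockout 3, with overlapping groups. Col5a1, a regulator of fibril width, was at 209.9, 201 and 195 in controls 1 to 3, 260.1 and 220.3 for knockouts 1 and 2, and 165 for the library labelled knockout 3, where the knockouts were highest and the library shown apart lowest (log2 0.25 ± 0.09, adjusted p = 0.19, limma). Its partner Col5a2 had 332, 325 and 375 in controls 1 to 3, 348 and 302 for knockouts 1 and 2, and 293 for the library labelled knockout 3 (log2 -0.08 ± 0.09). Col2a1, the fibril collagen of cartilage that is also made in heart cushions, had 93.4, 113 and 109.6 in controls 1 to 3, 58.5 and 113 for knockouts 1 and 2, and 137 for the library labelled knockout 3, so that knockout 1 alone stood low (log2 -0.36 ± 0.24, adjusted p = 0.5, limma; -0.83 and 0.027 without knockout 2). The lesser fibrillar genes Col11a1, Col11a2 and Col27a1 had log2 fold changes of 0.25 ± 0.15, 0.27 ± 0.23 and 0.30 ± 0.14.

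Basement membrane collagen IV was the most abundant collagen for its length. Per kilobase of transcript, the control means were 154 for Col4a1 and 96.9 for Col4a2, ranks 3 and 4 of the 56 after Sparc (514) and Fn1 (253), and 91.1 for Col3a1 at rank 5. Col4a1 was at 1152, 995 and 905 in controls 1 to 3, 1159.9 and 1308 for knockouts 1 and 2, and 973 for the library labelled knockout 3. Col4a2 was at 716, 617 and 542 in controls 1 to 3, 746 and 846 for knockouts 1 and 2, and 604 for the library labelled knockout 3. Both knockouts were above every control for both genes, for Col4a1 by little in knockout 1. The log2 fold changes of 0.28 ± 0.12 and 0.36 ± 0.12 did not pass (adjusted p = 0.28 and 0.19, limma). The genes lie head to head on chromosome 8, their annotated starts 21 bp apart with the gene ends overlapping there, and their length-scaled ratio stayed between 1.51 and 1.63 in all 6 libraries. Reads over the short overlap cannot be told apart without strand. The pair on the X chromosome, Col4a5 and Col4a6, whose starts are 1309 bp apart, had log2 fold changes of -0.16 ± 0.08 and -0.22 ± 0.10 (adjusted p = 0.36 and 0.29), with both knockouts below every control. The last pair, Col4a3 and Col4a4, was near the floor of the table, at 1.24 ± 0.264 and 1.44 ± 0.368 in controls (SD, n = 3). Thus 4 of the 6 chains, the low Col4a3 and Col4a4 among them, had both knockouts above the controls (66.7%, beside 18.1% of all genes). The other 2 had both below (33.3%, beside 17.0%). None of the 6 passed by limma, beside 4.25% of all genes, or by DESeq2, beside 3.97% higher and 1.99% lower (smallest unadjusted p of limma 0.0218, Col4a2, with 3 genes under 0.05).

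The abundant laminin chains did not pass. Lamb1, Lamc1 and Lama4 encode the chains of laminin 411 of vessel walls. Lamb1 was at 494 ± 45.4 in controls (SD, n = 3) and at 534 and 465 in knockouts 1 and 2 (log2 0.01 ± 0.10). Lamc1, the common gamma chain, was at 646 ± 63.5 and 571 and 559 in the same order (log2 -0.19 ± 0.09). Lama4 was at 416 ± 43.8 and 409.8 and 369 (log2 -0.09 ± 0.10). Groups overlapped for Lamb1 and Lama4, and both knockouts were below the controls for Lamc1. Lama5, the broad alpha chain of epithelial and endothelial membranes, had 127, 100.1 and 91.6 in controls 1 to 3, 143 and 127 for knockouts 1 and 2, and 113 for the library labelled knockout 3 (log2 0.35 ± 0.13, adjusted p = 0.22, limma; 0.49 and 0.048 without control 1). Its groups overlapped, since control 1 lay slightly above knockout 2. Lama1, an early embryonic alpha chain, was at 5.21, 6.54 and 7.24 in controls 1 to 3, 31.8 and 7.80 for knockouts 1 and 2, and 7.05 for the library labelled knockout 3, so that knockout 1 stood far above the rest. It had a log2 fold change of 1.22 ± 0.47 (adjusted p = 0.23, limma) with 5 libraries, 1.31 (adjusted p = 0.038) between littermates, and 0.27 to 2.17 over the fits that left out 1 library, passing in the fit without knockout 2 (adjusted p = 0.0069, limma). Lamc3 was at 2.33, 2.43 and 4.72 in controls 1 to 3, 5.33 and 5.96 for knockouts 1 and 2, and 2.93 for the library labelled knockout 3, both knockouts above every control (adjusted p = 0.21, limma; 0.016 between littermates).

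None of the 9 glycoproteins and proteoglycans passed by limma, beside 4.25% of all genes, although DESeq2 called Nid1 higher, beside 3.97% of all genes. Fn1, the fibronectin gene, was at 2349, 1926 and 2047 in controls 1 to 3, 2194 and 2299 for knockouts 1 and 2, and 1879 for the library labelled knockout 3 (log2 0.10 ± 0.12), and its groups overlapped. Sparc, a collagen-binding chaperone of the matrix and the highest per kilobase, was at 1159, 1203 and 1181 in controls 1 to 3, 1500.4 and 1261 for knockouts 1 and 2, and 1150.4 for the library labelled knockout 3 (log2 0.22 ± 0.10, adjusted p = 0.31, limma), the 2 knockouts being highest. The nidogens, which bridge laminin and collagen IV, were also highest in the 2 knockouts. Nid1 was at 356, 339 and 351 in controls 1 to 3, 419.7 and 435 for knockouts 1 and 2, and 318 for the library labelled knockout 3 (log2 0.29 ± 0.07, adjusted p = 0.059 by limma, 0.00096 by DESeq2). Nid2 stood at 339, 267 and 288 in controls 1 to 3, 381 and 361 for knockouts 1 and 2, and 284 for the library labelled knockout 3 (log2 0.32 ± 0.10, adjusted p = 0.16, limma; 0.42 and 0.049 without control 1). Hspg2, the perlecan gene, was at 1011, 836 and 727 in controls 1 to 3, 913 and 1018 for knockouts 1 and 2, and 800.3 for the library labelled knockout 3 (log2 0.18 ± 0.14). Vcan, the versican gene of the cardiac jelly, was at 955, 1049 and 1026 in controls 1 to 3, 897 and 939.7 for knockouts 1 and 2, and 753 for the library labelled knockout 3 (log2 -0.14 ± 0.08). Fbn1, which encodes a microfibril protein of elastic tissue, stood at 309, 294 and 341 in controls 1 to 3, 295 and 326 for knockouts 1 and 2, and 273 for the library labelled knockout 3 (log2 -0.02 ± 0.09). Groups overlapped for Hspg2 and Fbn1, and for Vcan both knockouts and the library shown apart were below every control.

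The remaining collagens were Col16a1, Col14a1, Col22a1, Col20a1, Col18a1, Col23a1, Col26a1, Col25a1, Col15a1, Col8a1, Col8a2 and Col7a1, besides Col9a1 and Col9a3. Col18a1, the basement membrane collagen whose end is released as endostatin, was the highest of these at 404, 472 and 435 in controls 1 to 3, 493 and 564 for knockouts 1 and 2, and 381 for the library labelled knockout 3 (log2 0.27 ± 0.10, adjusted p = 0.19, limma), with both knockouts highest. Col16a1 had 30.4, 33.5 and 37.5 in controls 1 to 3, 44.8 and 42.8 for knockouts 1 and 2, and 27.01 for the library labelled knockout 3 (adjusted p = 0.11, limma; 0.024 between littermates), and here too the knockouts were highest. Col23a1, a transmembrane collagen, was at 84.4 ± 9.32 in controls (SD, n = 3) and 87.4 and 94.0 in the knockouts. The others had log2 fold changes from -0.36 ± 0.81 (Col9a3) to 0.30 ± 0.16 (Col8a2), and none passed.

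The modifying enzymes showed a larger share of calls than their substrates. Of 30 listed enzymes and chaperones of collagen processing, 28 were measured, and 10 rose, 0 fell and 18 did not pass (35.7% higher, beside 3.01% of all genes and 5.36% of the matrix genes). DESeq2 called 14 higher and 0 lower, beside 3.97% and 1.99% of all genes. By an unadjusted p of limma under 0.05 with all 6 libraries, 8 of the 28 enzymes (28.6%) and 7 of the 56 matrix genes passed, beside 6.21% of all genes. The median log2 fold change was 0.38. Both knockouts were above all controls for 19 of the 28 (67.9%, beside 18.1% of all genes). Of the 36 collagens alone, 2 rose and 2 fell, beside 3.01% and 1.24% of all genes, with a median of 0.13. The difference between the lists was not itself tested.

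The prolyl 4-hydroxylase subunit P4ha2 was at 38.9, 39.6 and 42.4 in controls 1 to 3, 196 and 173 for knockouts 1 and 2, and 47.4 for the library labelled knockout 3 (log2 2.17 ± 0.08, adjusted p = 4.4e-05, limma), so that both knockouts stood far above every other library. P4ha1, the other main catalytic subunit, was at 68.9, 71.8 and 82.7 in controls 1 to 3, 161 and 135 for knockouts 1 and 2, and 71.8 for the library labelled knockout 3 (log2 0.98 ± 0.11). P4hb, the shared beta subunit, was at 417, 437 and 454 in controls 1 to 3, 798 and 689.5 for knockouts 1 and 2, and 389 for the library labelled knockout 3 (log2 0.77 ± 0.09). For all 3 the groups were far apart, and the library shown apart lay within or near the range of the controls. The lysyl hydroxylases Plod2 (72.6, 74.3 and 86.2 in controls 1 to 3, 228 and 192 for knockouts 1 and 2, and 78.1 for the library labelled knockout 3; log2 1.42 ± 0.11) and Plod1 (log2 0.63 ± 0.07) rose, and Plod3 did not pass with 5 libraries (log2 0.39 ± 0.09, adjusted p = 0.054, limma; 0.042 between littermates). The lysyl oxidase Loxl2 was at 305, 299 and 334 in controls 1 to 3, 820.5 and 709.5 for knockouts 1 and 2, and 299 for the library labelled knockout 3 (log2 1.29 ± 0.09, adjusted p = 0.00032, limma), again with the knockouts alone high. The collagen galactosyltransferases Colgalt1 and Colgalt2, P3h4, a partner of the lysyl hydroxylase complex, and Pcolce, an enhancer of procollagen cleavage, rose by 0.40, 0.77, 0.58 and 0.47 on the log2 scale. Those last 4 lost their calls in 3 to 5 of the 5 fits that left out 1 library, whereas P4ha2, Loxl2, Plod2, P4ha1, Plod1 and P4hb held in all. Among the 18 others were Serpinh1, the collagen chaperone HSP47 (822 ± 5.10 in controls, 1035 and 908 in knockouts; log2 0.24 ± 0.09), Lox (log2 0.35 ± 0.20) and the procollagen proteinase Bmp1 (log2 -0.09 ± 0.12).

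**Figure D3:**
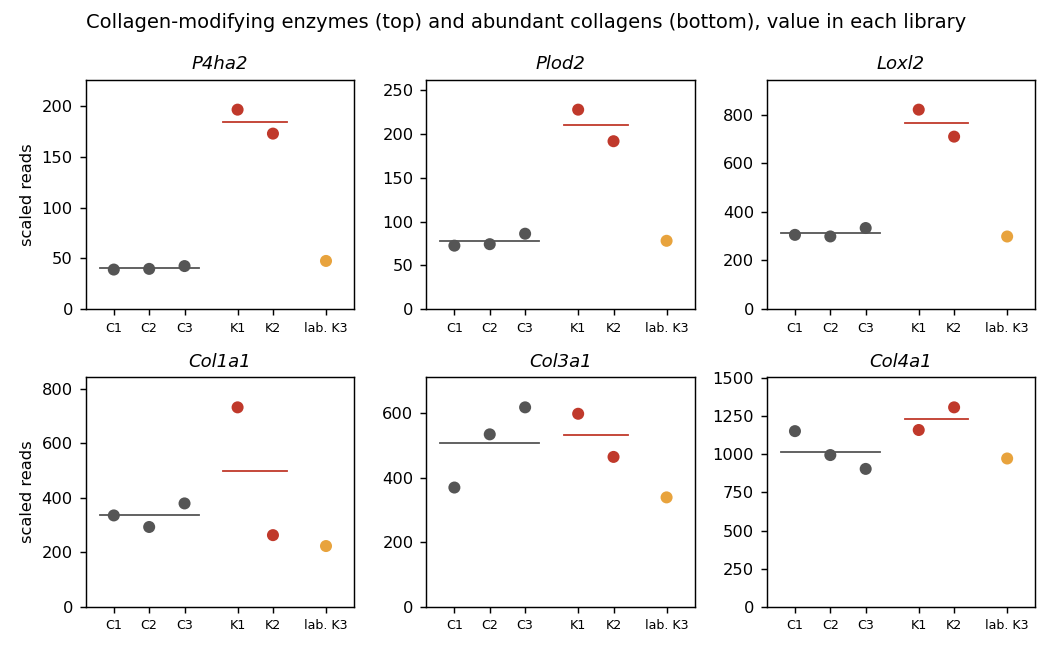
Scaled reads (y axis) of 3 modifying enzymes (top) and 3 abundant collagens (bottom) in each library (x axis, C controls, K knockouts, orange the library labelled knockout 3, lines show group means). P4ha2, Plod2 and Loxl2 are high in both knockouts, Col1a1 is high in knockout 1 alone, and the knockouts overlap the controls for Col3a1.

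**Figure D4:**
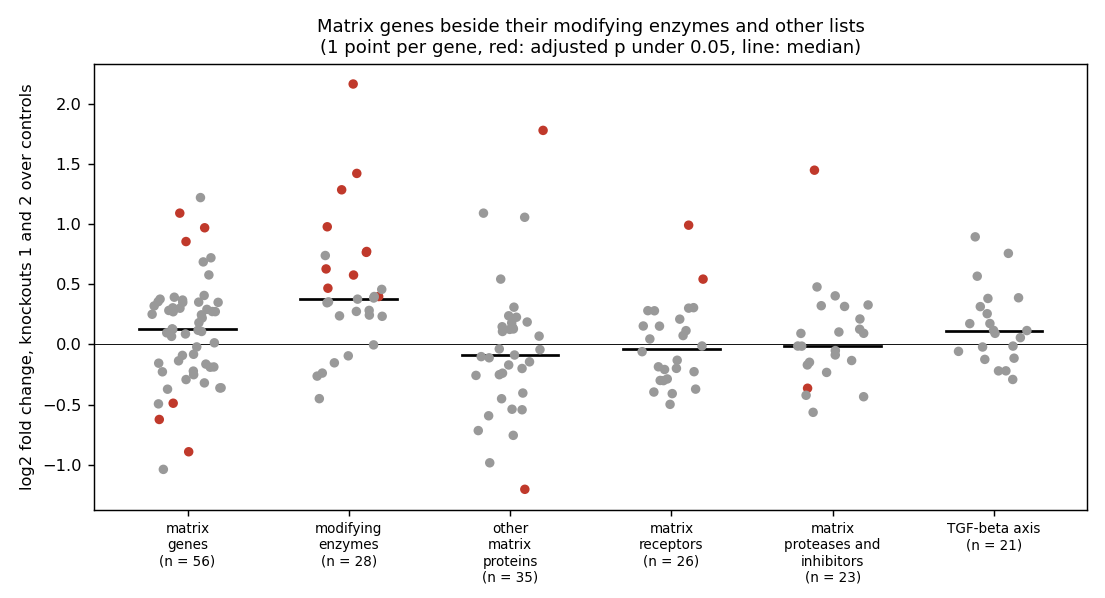
Log2 fold change (y axis) of each measured gene in the matrix genes and 5 lists beside them (x axis), with the median as a line and genes that passed in red. The modifying enzymes have 10 red points, all above 0, and the matrix genes have 3 above and 3 below.

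Promoter letters of 1 gene that fell and 3 enzymes that rose are shown because HIF binds DNA at a short core, ACGTG or GCGTG. RefSeq windows (GRCm38.p6) were at hand for 38 of the 56 matrix genes and 17 of the 28 enzymes. Only genes that passed and whose window of 250 bases before the RefSeq start lies wholly outside the GENCODE gene are printed, read 5′ to 3′ on the gene's strand, with the core, on this strand or as its reverse complement, in capitals.
Col13a1, chr10:61979109-61979358, strand -: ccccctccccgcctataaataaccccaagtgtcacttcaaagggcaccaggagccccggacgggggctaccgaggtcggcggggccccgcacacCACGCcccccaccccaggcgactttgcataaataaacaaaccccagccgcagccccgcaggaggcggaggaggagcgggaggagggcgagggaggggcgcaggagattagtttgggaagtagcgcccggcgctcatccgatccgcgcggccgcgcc
P4ha1, chr10:59323046-59323295, strand +: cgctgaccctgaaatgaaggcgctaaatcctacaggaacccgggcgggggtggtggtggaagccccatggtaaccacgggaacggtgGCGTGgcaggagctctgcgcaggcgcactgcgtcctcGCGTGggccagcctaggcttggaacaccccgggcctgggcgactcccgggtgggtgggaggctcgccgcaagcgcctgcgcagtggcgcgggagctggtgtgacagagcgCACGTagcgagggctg
P4hb, chr11:120573254-120573503, strand -: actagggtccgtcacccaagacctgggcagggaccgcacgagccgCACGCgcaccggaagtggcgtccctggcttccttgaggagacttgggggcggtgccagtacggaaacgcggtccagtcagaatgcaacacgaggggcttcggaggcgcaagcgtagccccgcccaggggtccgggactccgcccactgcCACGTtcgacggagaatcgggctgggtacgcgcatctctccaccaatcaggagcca
Plod1, chr4:147936777-147937026, strand -: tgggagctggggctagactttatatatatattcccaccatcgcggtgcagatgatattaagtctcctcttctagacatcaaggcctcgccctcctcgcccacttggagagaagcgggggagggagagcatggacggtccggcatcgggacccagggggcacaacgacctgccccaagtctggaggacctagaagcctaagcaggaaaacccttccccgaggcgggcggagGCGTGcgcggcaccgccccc
The core occurred 1 time in the window of Col13a1, 156 bases before the start, and 3 times in that of P4ha1, beginning 163, 126 and 16 bases before it. P4hb held 2, at 205 and 56 bases, and Plod1 held 1, at 20 bases. Of the windows not printed, those of Col6a1, Lama2 and Col9a2 held none. The windows of Lama2, Lamb3, P4ha2 and Pcolce lie wholly inside the GENCODE gene. Lamb3 had 1 core in the window of one RefSeq start, 31 bases before it, and none in the other. Among the enzymes, P4ha2 held 3, the 2 windows of Colgalt1 held 2 and 1, and Pcolce held 1. Of all 27025 genes with a window, 41.5% held at least 1 core. The share was 34.2% for the 38 matrix genes (13) and 76.5% for the 17 enzymes (13). The 27025 genes outnumber those of the table and so include genes not measured here, whereas the matrix genes and enzymes were all measured. A share among measured genes alone is not given. Of all windows, 6.58% held 3 or more. These are matches of letters and not measured binding. The core holds the letters CG, and the windows differed in their count of CG. Those of the matrix genes that passed held 24 (Col13a1), 9 (Col9a2), 3 (Col6a1), 0 (Lama2) and 2 and 3 (Lamb3). Those of the enzymes held 24 (P4ha1), 25 (P4hb), 21 (P4ha2), 16 (Plod1), 14 and 20 (Colgalt1) and 5 (Pcolce). The shares were not adjusted for base composition.

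Some matrix genes varied widely among the controls. In 9 of the 56 the highest control was more than 2 times the lowest, and in 8 of these control 1 was the lowest. Postn, the periostin gene of fibroblasts and cushions, had 93.9, 293 and 241 in controls 1 to 3, 279.6 and 205 for knockouts 1 and 2, and 71.3 for the library labelled knockout 3. Col9a1 was at 1.33, 19.9 and 15.2 in controls 1 to 3, 5.82 and 13.8 for knockouts 1 and 2, and 2.38 for the library labelled knockout 3. Col9a3 was at 1.66, 14.6 and 11.6 in controls 1 to 3, 2.18 and 11.4 for knockouts 1 and 2, and 1.01 for the library labelled knockout 3. Eln, the elastin gene of vessel and outflow walls, stood at 7.54, 18.7 and 13.7 in controls 1 to 3, 6.30 and 11.7 for knockouts 1 and 2, and 6.41 for the library labelled knockout 3. Control 1 and the library labelled knockout 3 were thus low for each, while knockout 1 was low for Col9a3 and Eln, intermediate for Col9a1 and high for Postn. The 11 measured markers of cushion mesenchyme and fibroblasts, such as Pdgfra, Sox9 and Twist1, summed to 51.0, 182 and 171 in controls 1 to 3, 74.8 and 155 in knockouts 1 and 2, with 58.3 for the library shown apart. No marker of that list was at 0 in any library, and 0 of 11 passed by limma, beside 4.25% of all genes (0 at an unadjusted p under 0.05, and 0 by DESeq2). In whole tissue, fewer cells of a type and less RNA per cell cannot be told apart, and the part of these markers in the values of Postn, Col9a1, Col9a3, Eln and Col6a3 was not tested.

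**Figure D5:**
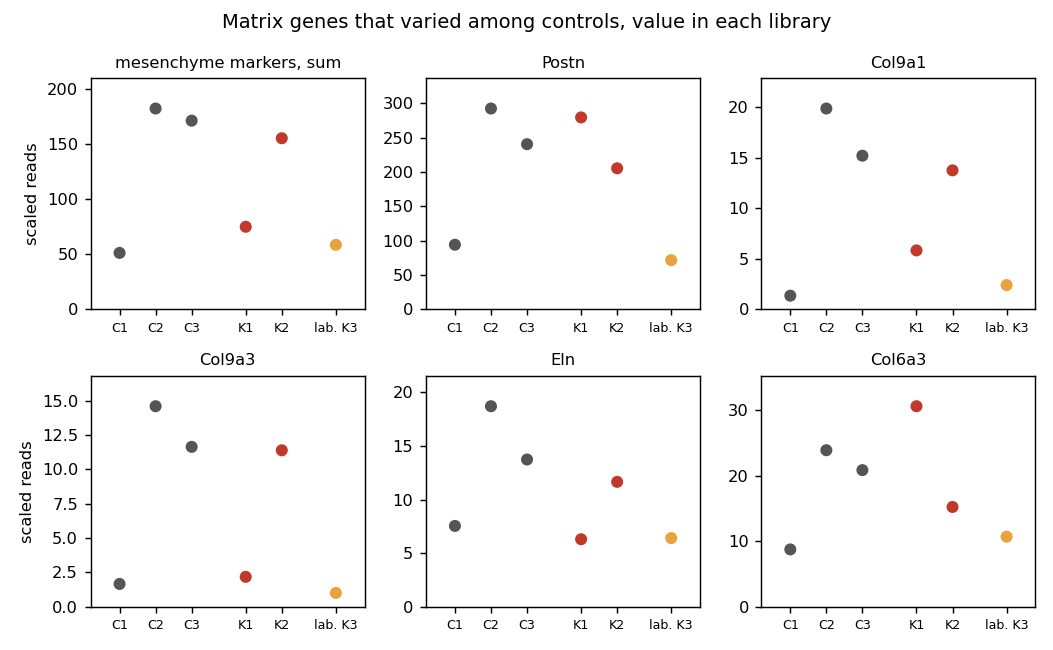
Summed level of 11 mesenchyme markers and the values of 5 matrix genes (y axis, scaled reads) in each library (x axis, colours as in the other plots). Control 1 and the library labelled knockout 3 are low in all 6 panels, and knockout 1 is low for the marker sum, Col9a3 and Eln but not for Postn and Col6a3.

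Some other marker lists held genes that rose, beside 3.01% of all genes. Of 14 epicardial markers 5 rose and 0 fell (11 rose between littermates, beside 4.92% of all genes in that fit). Their sum was 514, 444 and 556 in controls 1 to 3, 1060.4 and 832 in knockouts 1 and 2. Of 10 smooth muscle and pericyte markers 4 rose, summing to 1595, 1888 and 1835 in controls 1 to 3, 2859 and 2832 in knockouts 1 and 2. Of 14 endothelial and endocardial markers 3 rose, summing to 1929.97, 1898 and 1868 in controls 1 to 3, 2176 and 2207 in knockouts 1 and 2. The library labelled knockout 3 had 509, 1685 and 1795, and no marker of these lists was at 0 in any library. Their part in the calls of Col12a1, Col6a1, Lamb3 and the enzymes was not tested. Smooth muscle markers are also made by embryonic cardiomyocytes, so they do not mark 1 cell type at this stage. Of 14 cardiomyocyte markers 0 rose and 1 fell, beside 1.24% of all genes lower. Between littermates 2 fell, beside 3.21%. Both knockouts were below every control for 4 (28.6%, beside 17.0% of all genes) and above for 1, with a median of -0.16. Of 13 measured blood and macrophage markers 0 passed. They summed to 11064, 13348 and 5973 in controls 1 to 3, 6467 and 14525 in knockouts 1 and 2. The part of these lists was not tested either.

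In 4 further lists of matrix biology the calls are read beside 3.01% of all genes higher and 1.24% lower. Of 35 measured matrix proteins outside the 56, Sparcl1, a relative of Sparc, rose (19.7, 31.0 and 25.3 in controls 1 to 3, 82.5 and 93.9 for knockouts 1 and 2, and 25.5 for the library labelled knockout 3; log2 1.78 ± 0.17, adjusted p = 0.0013, limma) and Tnxb, a tenascin gene, fell (log2 -1.20 ± 0.20, adjusted p = 0.019). Both knockouts were above every control for Sparcl1. Tnxb lies on chromosome 17 (34670535 to 34719815), as does Nkx2-5 (26838664 to 26845009), the gene that carries Cre in the knockout group. The part of that linkage in the fall of Tnxb was not tested. Among the 56 matrix genes, Col11a2 (34039437 to 34066685) and Lama1 (67697259 to 67822647) also lie on chromosome 17, and its part in their values was not tested either. Of 26 measured matrix receptors, the syndecan Sdc4 (log2 0.99 ± 0.13) and the integrin chain Itgav (log2 0.54 ± 0.11), which binds fibronectin and periostin, rose and 0 fell. Dag1 and Itgb1, which are among the laminin receptor genes of that list, did not pass. Of 23 proteases and inhibitors, 1 rose and the metalloproteinase inhibitor Timp2 fell (log2 -0.36 ± 0.07). The call of Timp2 was lost whichever library was left out (adjusted p up to 0.18, limma), that of Itgav in 4 of the 5 such fits (every one but that without control 1; up to 0.23) and that of Tnxb without control 3 or knockout 1 (up to 0.13). Of 21 genes of the TGF-beta axis 0 passed by limma (7 at an unadjusted p under 0.05, and 1 by DESeq2), and Ccn2, a matrix-inducing factor, was at 213, 161 and 96.1 in controls 1 to 3, 288 and 267 for knockouts 1 and 2, and 147 for the library labelled knockout 3 (log2 0.89 ± 0.28, adjusted p = 0.14, limma; 0.041 without control 1). Between littermates 4 of the 21 rose and 0 fell, beside 4.92% and 3.21% of all genes.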

How the data were processed

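RNA of single ventricles from 6 mouse embryos was sequenced. Per the submitters' processing notes, CASAVA 1.8.2, cutadapt 1.3, RSEM 1.2.3 and GRCm38 were used, while no annotation, filter or scaling step is named there. The deposited signal values were whole reads divided by 1 factor per library: all came out whole within 0.01 reads, and every gene of the 13843 reached 1 in at least 3 libraries. GENCODE M21 gave symbols for 13675 genes and none for 168.

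limma 3.58.1 (R 4.3.3, with trend) was fitted to log2(value + 1), which understates changes of low genes. edgeR 4.0.16 and DESeq2 1.42.0 on recovered reads, pseudocounts of 0.5 and 5, a minimum mean of 5, rescaling, all 6 libraries, littermates and leaving out each library were alternatives. The fits were also run on simulated reads, drawn with the same spread setting for every gene and without effects of litter or tissue content. That run does not show how the fits behave with the spread between these embryos. P-values measure the spread between embryos. Litter labels pair controls and knockouts 1 and 2. Deviations from the mean of each labelled group, over all 6 libraries, correlated at 0.20 and 0.28 in these pairs. The knockout mean used there includes the library labelled knockout 3, so these correlations do not measure litter alone. Control 3 and the library labelled knockout 3 came from litters 3 and 4, although the series text speaks of 3 litters, and their deviations correlated at 0.01.

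Genes were named where they passed, were among the most abundant of their class, or were first by p in a list, and other matrix genes belong to the symbol rule. Plod3, Serpinh1, Lox, Bmp1, Dag1 and Itgb1 were named after their values were seen. A few genes that the tests and counts include are not reported here by name. The members and the 11 lists were chosen with earlier results of these data known. Lengths are those of the longest basic protein-coding transcript. Strand use in counting is not stated, so antisense or overlapping genes and near-identical copies are uncertain.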

Additional observations from a re-analysis of the deposited data

Results flagged for a closer look

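For 5 of the 56 matrix genes (8.93%) the littermate differences, knockout minus control, had opposite signs in litters 1 and 2, each by more than 0.5 on the log2 scale, against 76 of all genes (0.549%). The difference between litters was not tested. Col6a3 differed by 1.70 in litter 1 and -0.62 in litter 2, and Postn by 1.56 and -0.51. Col9a1 differed by 1.55 and -0.50, Col15a1 by 1.06 and -1.25, and Col20a1 by -0.75 and 0.76. The library labelled knockout 3 was left out of the comparison. There, 2 of the 56 (3.57%) stood above every control and over 0.5 above their mean on the log2 scale. This was so for 1.34% of all genes. Col20a1 met this rule at 1.92 (21 reads), against 1.78, 0.42 and 0.52 in controls 1 to 3 (16, 5 and 5 reads), so it rests on few reads. Among the modifying enzymes Tll1 met it at 9.07, against 4.22, 4.53 and 1.47 in controls 1 to 3.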

How the results depend on the processing

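With all 6 libraries, 0 matrix genes were higher, 0 lower, 0 enzymes higher and 0 of all genes higher or lower, and the medians were 0.021 (matrix genes) and 0.22 (enzymes). Between littermates, the litter being a block that left 1 residual degree of freedom, 7 matrix genes were higher and 5 lower (median 0.20), the enzyme median was 0.36, and 681 of all genes were higher and 444 lower. DESeq2 gave 5 matrix genes higher (median 0.15), an enzyme median of 0.388 and 276 of all genes lower, and edgeR an enzyme median of 0.387. Pseudocounts of 0.5 and 5 gave matrix medians of 0.18 and 0.0998, and 5 an enzyme median of 0.32. Leaving out each library gave 2 to 5 matrix genes higher, 0 to 3 lower and a median of 0.0969 to 0.20. It gave 6 to 9 enzymes higher (median 0.34 to 0.43), and 146 to 297 of all genes higher and 44 to 90 lower. Single-gene values were recomputed for 111 genes, which are those of the naming rule and most other genes named. Of 1428 such values, 1235 kept side and direction, 116 lost and 36 gained a call, and 41 changed sign, in 21 genes that were not called. Tll1, Nkx2-5, Pdgfra, Sox9 and Twist1 are named in the text but were not among the 111. Tll1 changed sign too, at -0.0036 with 5 libraries, 0.42 with all 6, and -0.64 to 0.63 over the fits that left out 1 library. With all 6 libraries, Col3a1 was -0.12, Lamb1 -0.025, Postn -0.23, Col9a1 -0.40 and Col11a2 -0.0040. With the block, Lamb1 was -0.0041, Fbn1 0.038 and Lama3 0.15. Col9a1 was -0.046 with a pseudocount of 5, -0.33 by edgeR and -0.31 by DESeq2. Over the fits that left out 1 library, Col3a1 ranged from -0.12 to 0.27, Col1a1 from -0.34 to 1.13, Col1a2 from -0.21 to 0.76, Col2a1 from -0.83 to 0.11, Col5a2 from -0.18 to 0.020, Lamb1 from -0.086 to 0.11, Lama3 from -0.46 to 0.15, Postn from -0.15 to 0.67, Fbn1 from -0.092 to 0.051, Col6a3 from -0.10 to 0.86, Col9a1 from -0.88 to 0.71, Col9a3 from -1.34 to 0.62, Col20a1 from -0.14 to 0.44, Col25a1 from -0.69 to 0.11, Col26a1 from -0.52 to 0.062, Col15a1 from -0.78 to 0.40, Bmp1 from -0.26 to 0.075, Prrx1 from -1.57 to 0.062, Msx1 from -0.99 to 0.013 and Thy1 from -0.42 to 0.19. The cause was not tested. Genes near 1 to 3 scaled reads rest on few reads.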
